A study of Danio rerio with 17 samples.

Results

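The genes that write, maintain and erase DNA methylation were followed along the animal-vegetal axis of the zebrafish (Danio rerio) oocyte. They were chosen by symbol, as the maintenance pair dnmt1 and uhrf1, the de novo methyltransferases dnmt3aa, dnmt3ab, dnmt3ba and dnmt3bb.1, and the erasers tet1, tet2 and tet3. All 9 had an entry among the 32520 genes counted, and 8 of them had reads, as had 15867 of all genes. Single oocytes were frozen and cut on a cryostat from the animal pole to the vegetal pole, and RNA was sequenced from 5 successive segments, lettered from A (animal) to E (vegetal). The 17 libraries used came from 4 oocytes, which gave 5, 4, 4 and 4 of them. Segment A had 4 libraries, B had 3, C had 4, D had 3 and E had 3, each from a separate oocyte. The segment is thus the only difference the labels name between groups; they give no strain, genotype, treatment, age or oocyte stage.

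DNA methylation in vertebrates places a methyl group on cytosine, mostly where a guanine follows. Dnmt1 copies the mark to the new strand after replication, and Uhrf1 brings it there by recognising DNA that is methylated on the old strand only. Dnmt3 enzymes add the mark at new sites, and Tet enzymes oxidise 5-methylcytosine, a step towards its removal. An oocyte is arrested in meiosis and does not replicate its DNA, and it stores transcripts that serve the egg and the early embryo before the embryo's own genome is transcribed.

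Between 4054233 and 23672322 reads per library were counted in genes, 4054233 to 9319365 in oocyte 1 and 13833357 to 23672322 in the others. Between 8535 and 11280 genes per library had reads, fewest in segment C of oocyte 3. Spike-in RNA made up at most 0.00239% of the reads in oocyte 1 and 0.185% to 0.802% in oocytes 2 to 4, and oocyte and library preparation cannot be told apart. Levels are CPM, read counts relative to a common library size, on library sizes scaled by the trimmed mean of M values (TMM), and 3 reads corresponded to 0.130 to 0.722 CPM. A level is a share of a library's RNA, so more RNA of a gene and less of all other RNA cannot be told apart. All 9 oocyte marker entries had reads, led by buc at a mean of 1624 CPM, and their summed level was 2209 to 2469 CPM in segment A and 2105 to 2672 CPM in segment E. Of 9 follicle cell marker entries 3 had reads (cyp11a1, lhcgr and gsdf), with a summed level of 59.5 to 277 CPM in A and 150 to 239 CPM in E, while star, fshr, amh, inha and hsd3b1 were at 0. Of 4 blood cell marker entries only coro1a had reads, and both globin entries were at 0. The part of these markers in the results below was not tested.

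The question throughout was whether each transcript differed along the axis. Of the 9 genes, 7 passed the filter on low counts and were tested with the quasi-likelihood test of edgeR. A gene was called at a Benjamini-Hochberg adjusted p under 0.05. Between segments E and A, 0 of the 7 were called, where 1.91% of all 12549 genes tested were. In the joint test of the 5 segments 0 were called, against 1.67% of all genes, and 0 had a trend over the segments, against 2.41%. At an unadjusted p under 0.05 each of these tests held 1 of the 7, and 8.05%, 7.08% and 7.50% of all genes. Between E and A this was the DNMT3A entry ENSDARG00000015566, which had reads in oocyte 1 only. In the joint and trend tests it was uhrf1. DESeq2 called 0 as well, but gave an adjusted p for 6 of the 7 between E and A and in the trend. In the joint test it gave an adjusted p for dnmt1 and uhrf1 alone, 2 of the 7. Of all genes with an adjusted p, it called 687 of 11801 between E and A, 495 of 11603 in the trend and 329 of 5002 in the joint test. With the oocyte as a block uhrf1 was called in the joint test by edgeR, DESeq2 and limma, and limma called dnmt1 too. There edgeR called 2.31% and limma 2.33% of all genes, and DESeq2 7.69% of those with an adjusted p. Segments A and E overlapped in each of the 7, where 8.42% of all genes tested had no overlap. The oocyte test, which asked for differences between oocytes at the same segment, called 0 of the 7 as well, where 0.638% of all genes were called. Here 3 of the 7 had an unadjusted p under 0.05, as had 5.97% of all genes. DESeq2 called 0 of the 6 to which it gave an adjusted p, and 133 of all 10116 such genes. In the oocyte test edgeR drew the spread from 1 trend shared by all genes, not gene by gene.

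dnmt1, the maintenance methyltransferase, was read in every library, with 4750 to 42693 reads each. In segment A its level was 768, 960.5, 975 and 1219 CPM in oocytes 1 to 4. In segment B it was 997, 1377 and 1856 CPM in oocytes 1, 2 and 4. These values overlap, although within each of these 3 oocytes segment B was above segment A. In segment C the level was 1169, 1333, 966 and 1614 CPM in oocytes 1 to 4. In segment D it was 1144, 1106 and 1279 CPM in oocytes 1, 2 and 3, and in segment E it was 905, 1365 and 1125 CPM in oocytes 1, 3 and 4. All pairs of segments overlapped.

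The mean level of dnmt1 was 981 ± 185 CPM in A (SD, n = 4), 1409.95 ± 430.3 in B (n = 3), 1270.2 ± 273.7 in C (n = 4), 1176 ± 91.2 in D (n = 3) and 1131 ± 230.1 in E (n = 3). The order was B, C, D, E, A, and the neighbours in it differed by less than the larger of their SDs. The fitted log2 difference of E minus A was 0.21 ± 0.24 (SE), with a 95% interval of -0.27 to 0.68 and an adjusted p of 1 (edgeR). An end-to-end difference of more than 0.68 on the log2 scale in favour of the vegetal segment lies outside this interval. The joint test of the segments gave an unadjusted p of 0.261, and the slope per segment was 0.024 on the log2 scale, with an interval of -0.093 to 0.14. Within an oocyte, E minus A was 0.24 in oocyte 1, 0.49 in oocyte 3 and -0.12 in oocyte 4 on the log2 scale, so the direction was not the same in all 3. Between oocytes the mean level was lowest in oocyte 1, at 997 ± 167 CPM (n = 5), and highest in oocyte 4, at 1453 ± 342 CPM (n = 4). Both means cover unlike sets of segments. The oocyte test of dnmt1 gave an unadjusted p of 0.0418 and an adjusted p of 0.807.

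The scaling decided 1 call for dnmt1. With the factors of the authors' normalized table, the joint test of the segments gave it an adjusted p of 0.00877, where 3.68% of all genes were called. The same factors placed the median of all tested genes 0.49, 0.48, 0.61 and 0.22 above segment A, on the log2 scale, in B, C, D and E. Relative to that median, dnmt1 stood 0.56, 0.40, 0.33 and 0.20 above segment A in B, C, D and E. Under TMM scaling it stood 0.55, 0.39, 0.31 and 0.21 above. A change of factors moves all genes of a library alike, so these near-equal values follow from the calculation and are not a test.

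uhrf1 encodes the partner that guides Dnmt1 to freshly replicated DNA. It too was read in every library, with 2455 to 44610 reads each. In segment A its level was 1113, 826, 773 and 1433 CPM in oocytes 1 to 4. In segment B it was 1499, 994 and 1281 CPM in oocytes 1, 2 and 4. In segment C it was 1320.4, 719, 2063 and 1152 CPM in oocytes 1 to 4. The value of 2063 CPM, from segment C of oocyte 3, was the highest of all 17. In segment D the level was 591, 617 and 1153 CPM in oocytes 1, 2 and 3. In segment E it was 539, 751 and 846 CPM in oocytes 1, 3 and 4. Within each oocyte, the most vegetal library analysed, D in oocyte 2 and E in the others, was the lowest of its libraries. In oocyte 3 this was 751 against 773 CPM in segment A. The pattern was picked after the values were seen, and the share of all genes with it was not computed. Segments B and E did not overlap, as was so in 12.5% of all genes tested, and the other 9 pairs of segments overlapped.

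**Figure D1:**
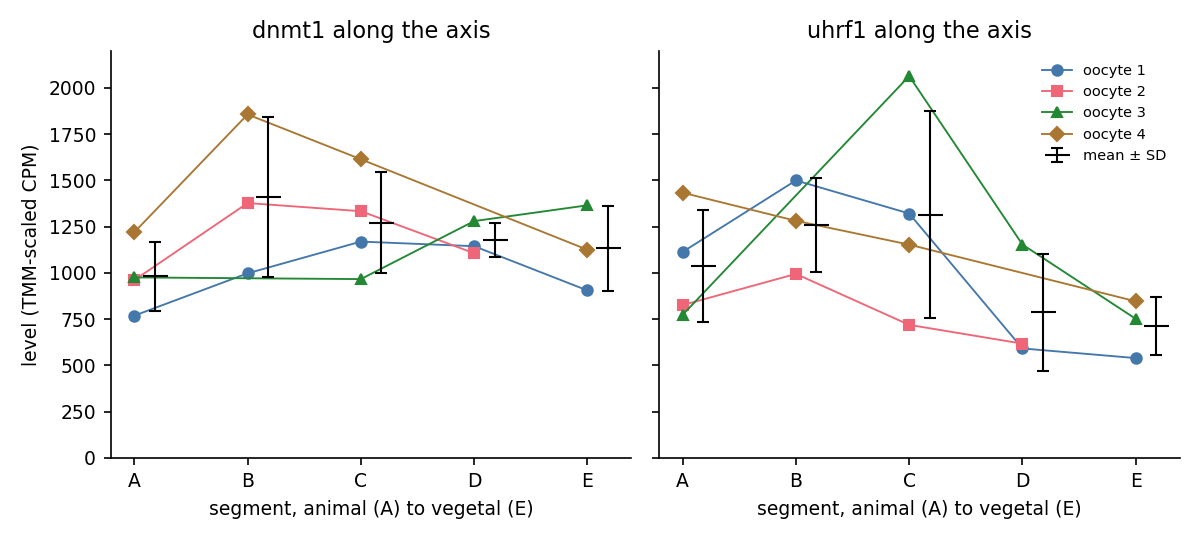
Level of dnmt1 (left) and uhrf1 (right), in TMM-scaled CPM, by segment from A (animal) to E (vegetal). Each point is 1 library, lines join the libraries of an oocyte, and the bars beside them give the mean and SD of a segment. dnmt1 lies between 768 and 1856 CPM with overlapping segments. uhrf1 has means of 1036, 1258, 1314, 787 and 712 CPM in A to E, and only its segments B and E do not overlap. Among all genes tested, 12.5% have no overlap there. The mean of C includes the 2063 CPM of oocyte 3. In the main edgeR fit, with TMM and no block, neither gene was called.

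The mean level of uhrf1 was 1036 ± 304 CPM in A (SD, n = 4), 1258 ± 253 in B (n = 3), 1314 ± 560.4 in C (n = 4), 787 ± 317 in D (n = 3) and 712 ± 157 in E (n = 3). The order was C, B, A, D, E, and the neighbours in it differed by less than the larger of their SDs. E minus A was -0.54 ± 0.28 (SE) on the log2 scale, with a 95% interval of -1.10 to 0.020, an unadjusted p of 0.0583 and an adjusted p of 0.632 (edgeR). The libraries of A and E overlapped, because segment A of oocyte 3, at 773 CPM, lay below segment E of oocyte 4, at 846 CPM. Within an oocyte, the log2 difference of E minus A was -1.05 in oocyte 1, -0.041 in oocyte 3 and -0.76 in oocyte 4. The joint test of the segments gave an unadjusted p of 0.00903 and an adjusted p of 0.332. In this fit edgeR drew the spread of uhrf1 towards a spread shared over genes, with 54.5 degrees of freedom against 12 of a single gene. The slope per segment was -0.16 ± 0.074 (SE) on the log2 scale, with an unadjusted p of 0.0347 and an adjusted p of 0.546. DESeq2 without a block gave uhrf1 unadjusted p-values of 0.143 for E against A, 0.0735 in the joint test and 0.0862 in the trend.

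The call of uhrf1 in the joint test changed between settings, among them the treatment of the shared origin of libraries. The oocyte numbers of the labels pair the libraries, since those with the same number came from the same oocyte. With the oocyte as a block in the same edgeR test, uhrf1 differed among the segments, with an adjusted p of 0.000791, where 2.31% of all genes were called. In that fit uhrf1 stood 0.38 and 0.27 above segment A in B and C on the log2 scale, -0.39 in D and -0.72 in E. E minus A alone had an adjusted p of 0.0760 under the block and the slope an adjusted p of 0.139, so neither was called. edgeR drew the spread of this blocked fit from 1 trend shared by all genes. The block and the change of spread were thus not told apart in it. DESeq2 and limma with voom weights estimate a spread for each gene and draw it towards a spread shared over genes. How far it was drawn was not examined. They gave uhrf1 adjusted p-values of 0.00478 and 0.00929 in the blocked joint test. DESeq2 called 7.69% of the 5007 genes to which it gave an adjusted p, and limma called 2.33% of all genes. limma with voom also called dnmt1 there, with an adjusted p of 0.0433, whereas edgeR and DESeq2 gave it adjusted p-values of 1.00 and 0.306 under the block.

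The blocked edgeR call of uhrf1 was lost without oocyte 1, which gave 5 of the 17 libraries. This oocyte also had the lowest depth and hardly any spike-in, and the part of either was not tested. Without oocyte 1 the blocked joint test gave uhrf1 an unadjusted p of 0.0198 and an adjusted p of 0.626. Its log2 difference of E minus A was -0.57. Over all genes 186 were called there, against 290 in the blocked fit of all libraries. Blocked fits with DESeq2 and limma were not repeated without it. Without oocyte 2, 3 or 4 the adjusted p was 0.000991, 0.0180 and 0.00220, where 278, 252 and 218 of all genes were called. Without segment C of oocyte 3, which had the highest level of uhrf1 and the fewest genes with reads, the adjusted p was 0.0488. There 296 of all genes were called. In the joint test without the block, uhrf1 was also called with the authors' factors (adjusted p 0.0109), without the filter on low counts (0.0322), without segment D of oocyte 3 (0.0223) and without oocyte 2 (0.0245). Over all genes 462, 263, 230 and 246 were called in these settings, against 209 in the main fit. DESeq2 without the block gave an adjusted p of 0.420.

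Between oocytes, uhrf1 had mean levels of 1013 ± 431 (n = 5), 789 ± 161, 1185 ± 614 and 1178 ± 249 CPM (n = 4 each) in oocytes 1 to 4. These means cover unlike sets of segments, whereas the oocyte test takes the segment into account. The oocyte test of edgeR, with a spread from 1 trend shared by all genes, gave uhrf1 an unadjusted p of 0.00152 and an adjusted p of 0.152. DESeq2 gave it an unadjusted p of 0.00661 and an adjusted p of 0.193 in the oocyte test. Without segment A of oocyte 3 the adjusted p of edgeR was 0.0173, where 0.669% of all genes were called, so 1 library decided this call. Without oocyte 2, which had the lowest mean, the adjusted p was 1.

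The reads of uhrf1 and dnmt1 in the same library were also set against each other, since that ratio does not depend on scaling between libraries. It depends on the lengths of both transcripts, so only its change between libraries is read. In segment A there were 1.45, 0.859, 0.793 and 1.18 reads of uhrf1 per read of dnmt1 in oocytes 1 to 4. In segment B there were 1.504, 0.722 and 0.690 in oocytes 1, 2 and 4, and in segment C there were 1.13, 0.539, 2.14 and 0.714 in oocytes 1 to 4. In segment D there were 0.517, 0.558 and 0.901 in oocytes 1, 2 and 3, and in segment E there were 0.596, 0.551 and 0.752 in oocytes 1, 3 and 4. Every library of segment E lay below every library of segment A, with 0.752 in E against 0.793 in A at the closest. Among single genes tested, 8.42% had no overlap between A and E. The share among ratios of other gene pairs was not computed. The ratio had a mean of 1.07 ± 0.303 in A (SD, n = 4) and 0.633 ± 0.106 in E (n = 3). The libraries of B and C lay between 0.539 and 2.14, a span that includes those of A and E, and the ratio was not tested.

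**Figure D2:**
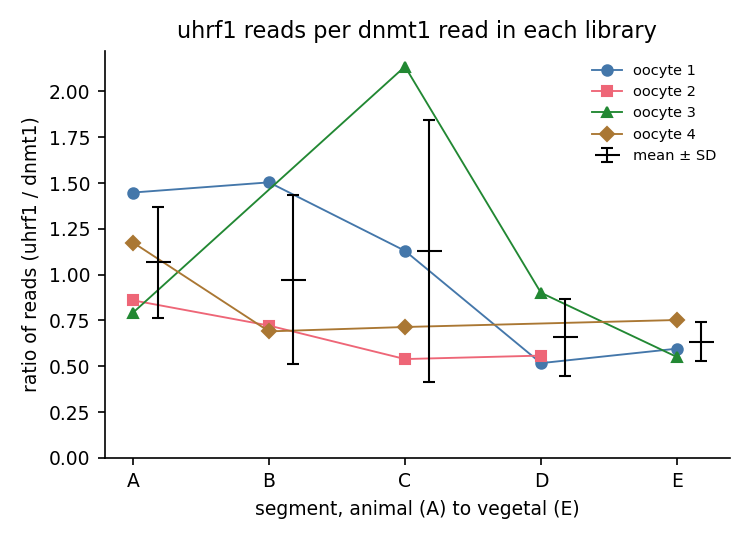
Reads of uhrf1 per read of dnmt1 in each library, by segment from A (animal) to E (vegetal). Points are libraries, lines join an oocyte and bars give the mean and SD of a segment. The 3 libraries of E, at 0.551 to 0.752, lie below the 4 of A, at 0.793 to 1.45, and segment C of oocyte 3 stands highest at 2.14. Of single genes tested, 8.42% have no overlap between A and E, and the share among ratios of other gene pairs was not computed.

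uhrf1 varied more between libraries of the same segment than most genes of its level. Its coefficient of variation within segments was 35.1%, and 96.4% of the 56 other genes within 1.25-fold of its mean level had a lower one. Segment C, with the 2063 CPM of oocyte 3, had an SD of 560 CPM, against 157 to 317 CPM in the other segments. The coefficient without that library was not computed. The coefficient of dnmt1 was 22.0%, and 58.3% of 36 genes within 1.25-fold of its level had a lower one. The levels of both over the 17 libraries were hardly alike, with a Pearson r of 0.10 on log2 CPM, which placed uhrf1 at rank 1670 among the 4286 genes compared with dnmt1. The genes most like dnmt1 were PIK3R3, CLUH and RIC1, each with an r of 0.72. The genes most like uhrf1 were PFN2 and ppp1r7, each with an r of 0.84, and ADNP, with an r of 0.81. These values describe 17 libraries that share oocytes, and were not tested.

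The de novo methyltransferases were read weakly and unevenly. dnmt3ba, one of the zebrafish counterparts of mammalian Dnmt3b, had 6779 reads in all. In oocyte 1 it had 239, 124, 0, 0 and 4 reads in A to E, and in oocyte 2 it had 134, 25, 1 and 69 in A to D. In oocyte 3 it had 274, 1230, 437 and 266 reads in A, C, D and E, and in oocyte 4 it had 1421, 1316, 920 and 319 in A, B, C and E. The levels of single libraries overlapped between oocytes, with 25.1 CPM in segment A of oocyte 1 and 16.0 CPM in segment A of oocyte 3. The mean levels per oocyte were 8.17 ± 11.5 (n = 5), 2.86 ± 3.05, 28.0 ± 20.1 and 46.8 ± 24.4 CPM (n = 4 each), with an unadjusted p of 0.0285 and an adjusted p of 0.690 in the oocyte test. These means of dnmt3ba cover unlike sets of segments. By segment its mean level was 30.4 ± 29.7 CPM in A (n = 4), 24.5 ± 29.2 in B (n = 3), 24.3 ± 28.8 in C (n = 4), 9.95 ± 14.5 in D (n = 3) and 9.90 ± 8.27 in E (n = 3). In all 3 oocytes with both ends segment E was below segment A, by -5.42, -0.33 and -2.17 on the log2 scale, the first of them against only 4 reads. The fitted E minus A was -1.62 ± 1.84 (SE) on the log2 scale, with an interval of -5.30 to 2.07 and an adjusted p of 1. It was -3.64 with the oocyte as a block (adjusted p 0.850) and -0.69 without segment A of oocyte 4.

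The entry named DNMT3B (ENSDARG00000036791) was taken as dnmt3bb.1, since the other 3 of the 4 zebrafish dnmt3b genes have entries of their own. It had 3552 reads. Oocyte 1 had 201, 49, 30, 72 and 80 reads in A to E, and oocyte 2 had 390, 0, 213 and 367 in A to D. Oocyte 3 had 2, 1, 797 and 880 reads in A, C, D and E, and oocyte 4 had 0, 209, 78 and 183 in A, B, C and E. In oocyte 3 nearly all reads thus lay in the vegetal libraries, whereas oocytes 1 and 2 had many in segment A. The mean level was 10.4 ± 11.9 CPM in A (n = 4), 5.02 ± 4.62 in B (n = 3), 5.68 ± 6.69 in C (n = 4), 27.8 ± 17.9 in D (n = 3) and 21.1 ± 18.3 in E (n = 3). Segment D, at 17.3 to 48.4 CPM, lay above B, at 0 to 9.09 CPM, and above C, at 0.046 to 15.4 CPM, in every library. Among all genes tested, 11.0% had no overlap between B and D and 5.10% had none between C and D. Segments B and E did not overlap either, with a lowest value of 9.40 CPM in E, and 12.5% of all genes had no overlap there. The fitted E minus A was 1.02 ± 2.12 (SE) on the log2 scale, with an interval of -3.22 to 5.26 and an adjusted p of 1, and the joint test gave an unadjusted p of 0.739. This gene lies beside its near copies dnmt3bb.2 and dnmt3bb.3, and reads that align to several places were left out of the counts, so its level is uncertain.

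Both entries named DNMT3A stand for dnmt3aa and dnmt3ab, and which is which could not be settled. The entry ENSDARG00000005394 had 2652 reads, and 1305 of them came from segment B of oocyte 4 alone. Its counts in oocyte 1 were 0, 31, 0, 136 and 69 in A to E, and in oocyte 2 they were 3, 0, 152 and 224 in A to D. In oocyte 3 they were 99, 50, 317 and 28 in A, C, D and E, and in oocyte 4 they were 47, 1305, 191 and 0 in A, B, C and E. Segment D was the highest library of oocytes 1 and 3 in CPM, and the libraries of D, at 10.7 to 32.7 CPM, all lay above those of A, at 0 to 5.78 CPM, and of E, at 0 to 10.1 CPM. Among all genes tested, 7.47% had no overlap between A and D and 10.2% had none between D and E. The joint test gave an unadjusted p of 0.621, and E minus A was 0.86 ± 2.47 (SE) on the log2 scale, with an interval of -4.09 to 5.81 and an adjusted p of 1. The entry ENSDARG00000015566 was read only in oocyte 1, with 40, 121 and 105 reads in B, D and E. Its other 14 libraries, among them all of segment A, were at 0, so no fold is given. For E against A it had an unadjusted p of 0.0407 and an adjusted p of 0.604 (edgeR). Within segment E these reads came from oocyte 1 alone.

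tet3, the Tet enzyme known from mammals as the one stored in the oocyte, had 4362 reads. In oocyte 1 it had 48, 18, 154, 1 and 175 reads in A to E, and in oocyte 2 it had 286, 3, 36 and 0 in A to D. In oocyte 3 it had 513, 0, 0 and 1 reads in A, C, D and E, and in oocyte 4 it had 1485, 555, 403 and 684 in A, B, C and E. Segment A was the highest library in oocytes 2, 3 and 4, and segment D held at most 1 read in each of its 3 libraries, so that A and D did not overlap, as was so in 7.47% of all genes tested. The mean level was 31.7 ± 31.8 CPM in A (n = 4), 8.82 ± 13.3 in B (n = 3), 10.04 ± 10.2 in C (n = 4) and 20.3 ± 18.2 in E (n = 3), while D was below the level of 3 reads. The joint test gave an unadjusted p of 0.0791 and an adjusted p of 0.793. E minus A was -0.64 ± 2.05 (SE) on the log2 scale, with an interval of -4.76 to 3.47 and an adjusted p of 1, and it turned to 0.29 without segment A of oocyte 4. With the oocyte as a block it was -3.74, with an adjusted p of 0.965. Oocyte 4, from which segment D was not analysed here, had the highest mean, at 38.4 ± 26.6 CPM (n = 4), against 10.6, 4.40 and 7.50 CPM in oocytes 1 to 3.

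The other erasers were nearly absent. tet1 had 55 reads in segment B of oocyte 1 and 0 in the other 16 libraries, and did not pass the filter. tet2 had 0 reads among the 275163664 counted in genes, which allows a level of up to 0.0109 CPM, for counting error only.

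**Figure D3:**
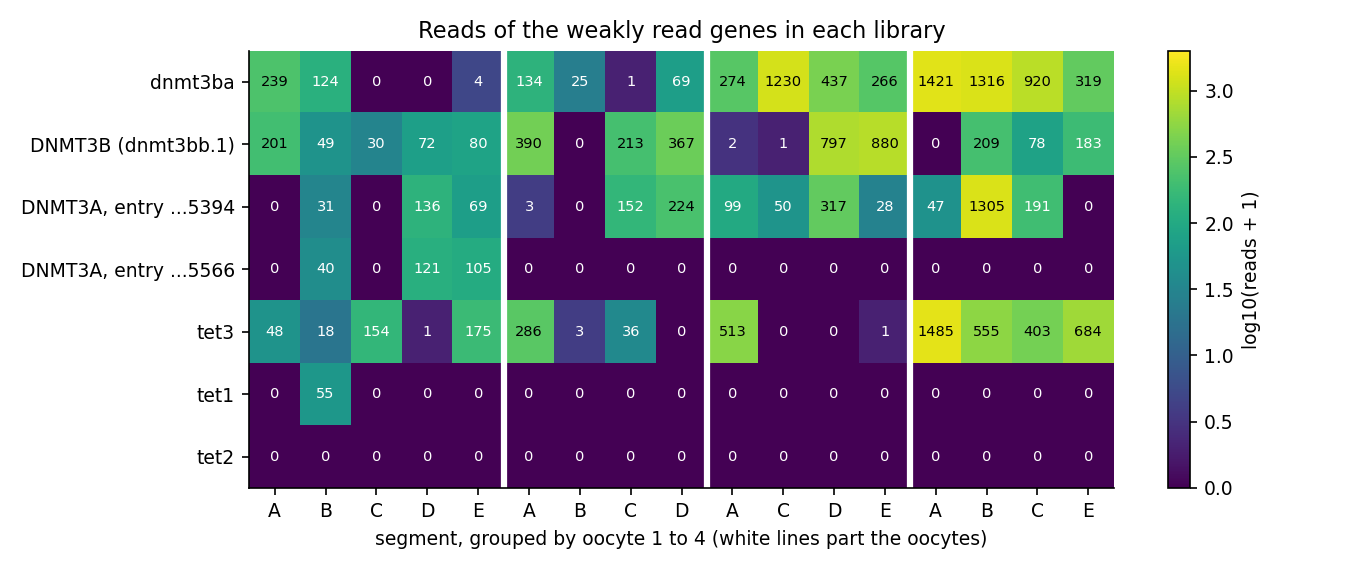
Reads in each of the 17 libraries for the 7 weakly read entries, grouped by oocyte 1 to 4 and by segment within it. The colour gives log10(reads + 1) and the number printed in a cell gives the reads. dnmt3ba has up to 1421 reads in a library, tet3 has at most 1 read in each library of segment D, and tet2 has 0 throughout.

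For these weak genes the depth and the spread between libraries leave wide intervals. The coefficient of variation within segments was 120.0% for dnmt3ba, 94.95% for DNMT3B, 147% for the DNMT3A entry ENSDARG00000005394 and 127% for tet3. Genes within 1.25-fold of their levels had medians of 89.1%, 110%, 127% and 105%, so uneven reads were common to weak genes in these libraries. dnmt3ba stood high among them, with 91.2% of 1142 such genes below it. Differences between the ends of the axis within those intervals remain compatible with the data. The smallest detectable difference was not computed. Levels of different genes are not compared, since no transcript lengths were used.

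**Figure D4:**
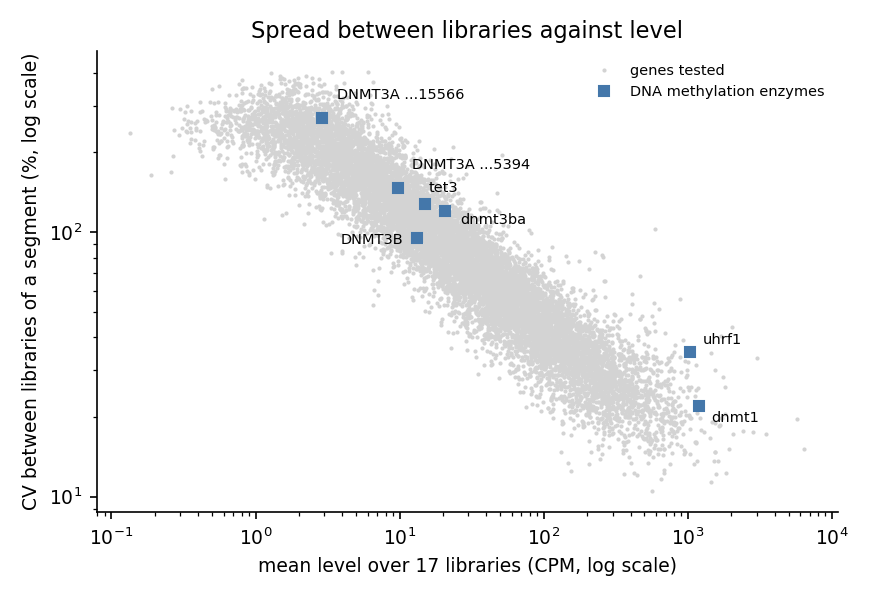
Coefficient of variation between libraries of a segment (%, log scale) against the mean level over the 17 libraries (CPM, log scale), for all 12549 genes tested (grey points) and the 7 DNA methylation enzymes tested (blue squares). uhrf1, at 35.1% with the 2063 CPM of segment C of oocyte 3 included, lies at the upper edge of the genes of its level. dnmt1, at 22.0%, lies among them.

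Other genes of the pathway were taken from a fixed list of 51 entries, namely further methyltransferases, partners of maintenance, methyl-CpG readers, repair and demethylation partners, cofactor supply of Tet and the methyl donor cycle. Of these 40 had reads and 36 were tested. edgeR called 0 of the 36 in any of the 4 tests, with smallest adjusted p-values of 0.604 for E against A, 0.474 for the joint test, 0.480 for the trend and 0.903 for the oocyte test. Of all genes tested 1.91%, 1.67%, 2.41% and 0.638% were called in these tests. At an unadjusted p under 0.05 there were 1, 3, 1 and 0 of the 36, and 8.05%, 7.08%, 7.50% and 5.97% of all genes. DESeq2 called 1, idh1, of the 20 with an adjusted p in the joint test, and 329 of all 5002 genes with one. In the other tests it called 0 of these pathway genes. Over all genes it called 687 between E and A, 495 in the trend and 133 in the oocyte test. With the oocyte as a block DESeq2 called idh1 and mbd1b in the joint test, and 7.69% of the 5007 genes with an adjusted p. E minus A was above 0 for 17 and below 0 for 19, with a median of -0.0085 on the log2 scale, against 0.00079 over all genes tested.

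Partners of maintenance were well read. CDCA7, which recruits the remodeller Hells, had a mean level of 595 CPM and an E minus A of 0.31 ± 0.27 (SE, log2). hells itself, whose product opens chromatin for methylation, had 245 ± 52.6 CPM in A (n = 4) and 151 ± 99.0 CPM in E (n = 3), with a log2 difference of -0.70 ± 0.40 and an adjusted p of 0.677. Its slope had an unadjusted p of 0.0277 and an adjusted p of 0.480, and it was called without oocyte 4 (adjusted p 0.0318, and 0.0298 with the oocyte as a block). Over all genes 248 and 245 were called in these fits. The ubiquitin protease gene usp7, whose product stabilises Uhrf1 and Dnmt1 in mammals, had 376 CPM and a log2 difference of 0.022 ± 0.28. The replication clamp gene pcna, to which Dnmt1 binds, had 241 CPM and a difference of -0.091 ± 0.32.

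In the methyl donor cycle, the entry MAT2A ENSDARG00000040334, which encodes the synthase of the methyl donor S-adenosylmethionine, had 786 CPM and an E minus A of 0.19 ± 0.25 (SE, log2). ahcy, whose product clears the by-product of methylation, had 225 CPM and a difference of 0.24 ± 0.33. Both entries of OGT, a sugar transferase that binds Tet proteins, had 251 CPM (ENSDARG00000105243) and 164 CPM (ENSDARG00000099455), with differences of -0.36 ± 0.33 and -0.16 ± 0.40. Of the readers, mbd6 had 182 CPM and a difference of 0.33 ± 0.39, and mbd1b had 101 CPM and a difference of -0.014 ± 0.50.

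Outside the naming rule, and with values already seen, both near copies of dnmt3bb.1 are described too. dnmt3bb.2 had 75.7 ± 48.9 CPM in A (n = 4) and 26.0 ± 11.5 CPM in E (n = 3), with a log2 difference of -1.54 ± 0.74 (SE), an unadjusted p of 0.0422 and an adjusted p of 0.604. dnmt3bb.3 had 60.6 ± 29.7 CPM in A and 48.1 ± 27.4 CPM in E, with a difference of -0.33 ± 0.69. Both were read in all 17 libraries.

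**Figure D5:**
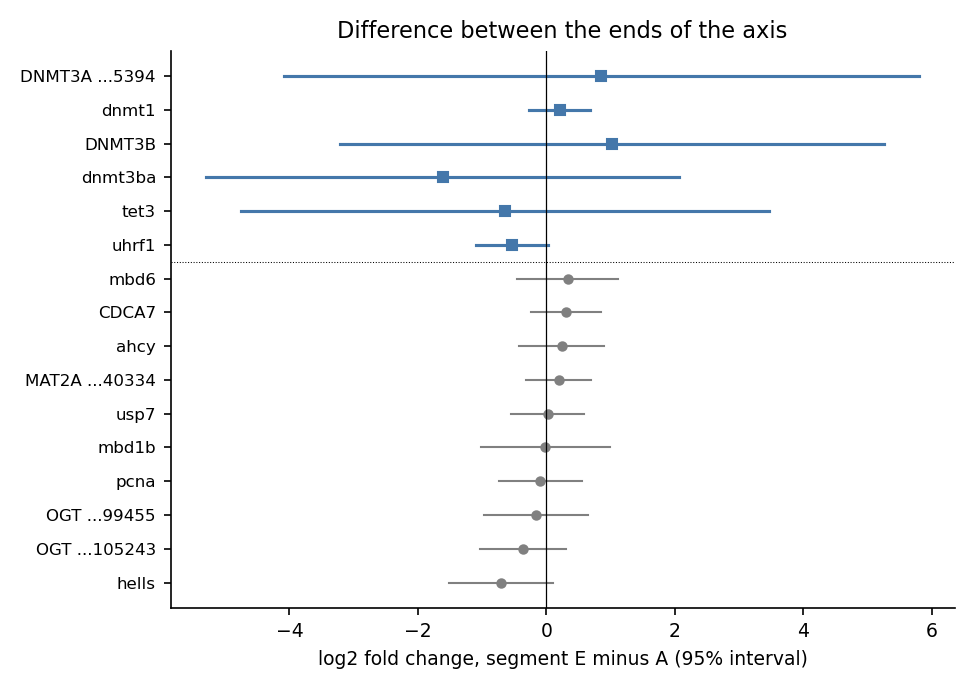
Log2 fold change of segment E minus segment A with its 95% interval, for 6 DNA methylation enzymes (blue squares) and the 10 other pathway genes whose mean level reached 100 CPM (grey circles). All 16 intervals drawn include 0, and those of dnmt3ba, DNMT3B, DNMT3A ENSDARG00000005394 and tet3 are far wider than those of dnmt1 and uhrf1. DNMT3A ENSDARG00000015566, at 0 reads in all of segment A, is not drawn, and its interval excludes 0 (edgeR, unadjusted p 0.0407, adjusted p 0.604). dnmt3bb.2, below 100 CPM, is not drawn either, and its interval of -3.02 to -0.057 excludes 0 (edgeR, adjusted p 0.604).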

How the data were processed

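Total RNA was isolated on columns from cryosections, depleted of ribosomal RNA and made into libraries with a total RNA kit, per the labels' protocols. Trimmomatic, STAR 2.5.3a, HTSeq, DESeq2 and the genome build GRCz11 are named in the submitters' processing notes, without their order, and whether strand was used in counting is not given in the sources used here. The authors deposited raw read counts for 32520 Ensembl genes, 92 spike-ins and 5 summary entries per library. Of all entries in the deposited counts, 4.60% to 6.10% were outside genes, 0.502% to 0.633% ambiguous and 6.88% to 14.2% had more than 1 alignment. Neither these rows nor the spike-ins entered library sizes or tests. The authors also deposited a normalized signal table, in which the counts of a library are divided by 1 factor. Multiplying by that factor gave whole reads (tolerance 0.01) for 100% of the values, and 100% equalled the counts, so the count test on these reads is the test on the counts.

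Symbols came from a table of identifiers that named 29201 of them (89.8%). RefSeq genes (GRCz12tu) served only for names and neighbours, and no coordinates are given. Genes were kept with filterByExpr (minimum count 10) and scaled by TMM. The quasi-likelihood F-test of edgeR 4.0.16 was fitted over all 17 libraries, 2-sided, with Benjamini-Hochberg adjustment over the 12549 genes tested and a threshold of 0.05, on segments as 5 groups, on the segment number, and on oocyte and segment together. SE is the absolute log2 fold change over the square root of F, and intervals cover 95%. The prior count for log2 CPM was 2. Alternatives were other scalings, no filter, DESeq2 1.42.0, each library or oocyte left out, and the oocyte as a block. Block fits with libraries left out, with the authors' factors, with DESeq2 and with limma 3.58.1 were added after seeing the data. Fits were tested on simulated data. Levels per length were not computed, since no transcript lengths were given.

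The labels give the oocyte of each library, so libraries with the same number are paired. Deviations from segment means over 2673 genes had a median correlation of 0.0715 between libraries of the same oocyte (28 pairs, -0.0912 to 0.309) and -0.0363 between libraries of different oocytes and segments (87 pairs). Libraries of a segment come from separate oocytes, and whether the oocytes came from separate fish is not given in the sources used here.

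The genes, the lists and the tests were chosen with earlier results of these data known. All 9 members are named, with the other pathway genes that were called or had a mean of at least 100 CPM. For members of at least 50 CPM, the 3 genes with the highest Pearson r are named too.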

Additional observations from a re-analysis of the deposited data

How the results depend on the processing

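No DNA methylation enzyme was called between segments E and A under any of 35 alternatives, where DESeq2 without the block gave 1 of the 7 no adjusted p. In the joint test of the segments 0 were called with TMM and edgeR, and 23 of 35 alternatives gave 0. With the authors' factors 2 were called, and 1 without the filter, with the replicate block or without oocyte 2. Over all genes these settings called 462, 263, 290 and 246. Under the block, 1 was called without segment C of oocyte 3, without oocyte 2, without oocyte 3, without oocyte 4 or with DESeq2, and 2 with the authors' factors or limma. In that order, these blocked fits called 296, 278, 252, 218, 385, 702 and 293 of all genes. Leaving out 1 library at a time gave 0 to 1 in the joint test, 0 in the end and trend tests and 0 to 1 in the oocyte test. Over all genes these fits called 189 to 248 in the joint test and 49 to 92 in the oocyte test. The trend test gave 1 under the block without oocyte 3, where 290 of all genes were called. The block in edgeR changed no other call of a member. The sign of E minus A held for dnmt1 (0.042 to 0.43, log2), uhrf1 (-0.85 to -0.33) and dnmt3ba (-4.64 to -0.69) under all 35 alternatives. It reversed for the DNMT3A entry ENSDARG00000005394, to -1.63 without segment E of oocyte 1, -2.05 without oocyte 1 and -2.52 without oocyte 1 under the block, for DNMT3B to -0.38 without oocyte 3, and for tet3 to 0.29 without segment A of oocyte 4. Leaving out 1 library at a time gave -1.63 to 2.12 for that DNMT3A entry and -1.27 to 0.29 for tet3, which reached -5.72 under the block without oocyte 1. The causes were not tested.

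Counts over all genes moved more than 1.5 times in these cases. Between E and A, 240 genes were called, 687 with DESeq2, 1224 with DESeq2 and the block and 152 without oocyte 1. In the joint test 209 were called, 462 with the authors' factors (702 with the block as well), 329 with DESeq2 and 385 with DESeq2 and the block. In the trend test 303 were called, 1096 without the filter, 495 with DESeq2 and 867 with DESeq2 and the block. In the oocyte test 80 were called, 133 with DESeq2, 29 without the segment term, 4 without oocyte 4, 50 without its segment A and 49 without its segment B. Levels per length, planned as an alternative, were not run.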

Other observations

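Of 7 GADD45 entries, whose products are linked to DNA demethylation in other settings, 6 were at 0 in all 17 libraries and 1, GADD45B ENSDARG00000013576, had 9 reads in a single library. That entry did not pass the filter, and was called in the trend test without the filter (adjusted p 0.0118, edgeR), where 1096 genes were called. Of the base excision genes, neil3 had a mean level of 94.8 CPM and mbd4 had 97.4 CPM, and both were read in all 17 libraries.

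The joint test of the segments gave 3 of the 36 other pathway genes an unadjusted p under 0.05 with edgeR, as it did 7.08% of all genes. These 3 were chosen after their values were seen. idh1, which makes the 2-oxoglutarate used by Tet, had 123 ± 59.7 CPM in segment C (n = 4) and 22.6 ± 2.85 CPM in segment D (n = 3), with an adjusted p of 0.474 with edgeR and 0.0141 with DESeq2. DESeq2 called 329 of the 5002 genes with an adjusted p in that test. neil1, a glycosylase gene, had 31.2 ± 14.3 CPM in A (n = 4) and 0 in all 3 libraries of B, with an adjusted p of 0.495. mbd1b had 46.9 ± 23.3 CPM in B and 159 ± 72.9 CPM in D (n = 3 each), with an adjusted p of 0.577.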
